A study of Oryzias latipes with 50 samples.

Results

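The comparison set late summer against midsummer in the brain of the medaka, Oryzias latipes, a small freshwater fish that breeds on long days. Its members were the libraries labelled August or September of 2016 or 2017 and those labelled June or July of the same years, 16 of the 50 libraries of the series. Each side held 4 dates with 2 libraries a date, and September 2015 was left out. Each library holds RNA-seq values from a block of ventral telencephalon, hypothalamus and pituitary of fish kept outdoors at 35.0 degrees north and taken at about 20 hours. No group carries a treatment or genotype other than its date. The labels used here do not state strain, sex, age or the number of fish in a library, nor whether the 2 libraries of a date come from separate fish. P-values over dates therefore measure the spread between these dates only.

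The hypothalamus directs the pituitary through releasing peptides, and the pituitary answers with hormones that drive the gonads, the thyroid, growth, salt balance and the adrenal-like interrenal tissue. The gonadotropins LH and FSH and thyrotropin share an alpha subunit, and each has a beta subunit of its own. In fish and birds, thyrotropin and the deiodinase enzymes that act on thyroid hormone in the brain have been tied to the reading of day length. By calculation from date and latitude, days lasted 14.2 to 14.5 hours on the June and July dates and 11.8 to 13.2 hours on the August and September dates. Sampling at 1 clock hour fell 0.856 to 0.958 hours after sunset in June and July and 1.53 to 2.41 hours after it in August and September. Day length, time since sunset, temperature and month cannot be told apart in this design.

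Summed FPKM, the deposited unit of fragments scaled by transcript length and library size, ranged from 294438 to 325694 in June and July and from 297710 to 332024 in August and September. Relative depth, read from the steps between low values, was 0.950 to 1.00 and 0.954 to 1.00 of the series median. Only values within 0.1 of a whole multiple of a common step were kept. That choice holds the measure near 1.00, so it cannot show a difference in depth between libraries. Libraries of 1 date correlated across genes with a median of 0.981 and libraries of different dates with 0.964, where genes are not independent. Markers of the labelled regions were present on every date, with summed hypothalamic markers at 90.7 to 117 FPKM and telencephalic markers at 132 to 185 FPKM. None of the marker genes was at 0 in all 16 libraries.

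The date June 2016 stood apart in genes of the midbrain and hindbrain. The summed 27 midbrain and hindbrain markers were at 190 FPKM in June 2016 and at 91.2 to 119 FPKM on the other 7 dates. Relaxin 3, rln3, a peptide that in mammals is made by brainstem neurons, was at 88.9 FPKM in June 2016 and at 0.390 to 1.79 FPKM on the other 7 dates. The midbrain form of gonadotropin-releasing hormone, gnrh2, was at 17.6 against at most 0.410 FPKM, and the midbrain transcription factor gene pax7 at 8.73 against 0.390 to 0.790 FPKM. The genes rln3, gnrh2 and pax7 were singled out after their values were seen, so they add no support of their own. Over the whole series, rln3 lay between 21.0 and 162 FPKM on all 10 dates up to June 2016 and between 0.390 and 1.79 FPKM on all 15 later dates. Of the 8 dates compared, June 2016 alone precedes this step, which the labels do not describe. Not every marker was fully apart: gata3 was at 1.64 to 6.09 FPKM on the dates up to June 2016 and at 1.00 to 2.27 FPKM on the later ones. Some results between sides are therefore also given without June 2016. Where no such value is given, the part of that date in the difference is not shown. In a block of tissue, fewer cells of a type and less RNA per cell cannot be told apart.

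No gene passed the test between midsummer and late summer. On log2(FPKM + 1), averaged over the 2 libraries of a date, limma with Benjamini-Hochberg adjustment called 0 of 16493 genes (0% of those tested) at an adjusted p under 0.05, and 253 (1.53%) had an unadjusted p under 0.05. Of those 253, 164 (0.994% of all genes) were higher and 89 (0.54%) lower in August and September. The smallest adjusted p was 1 after rounding. Without June 2016 the count was also 0, with 245 at the unadjusted threshold, and without August 2017 it was 0, with 305. It became 1 without August 2016 or its second library (BGI_novel_G001094, a transcript with no annotation) and 1 without September 2017 (the keratin gene LOC101159648).

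The step was also small on the log2(FPKM + 1) scale. The median gene differed by 0.0663 on the log2 scale in either direction, and the median change was 0.00977. For 97.7% of genes the 95% interval of the change lay within a 2-fold difference in FPKM + 1 either way. For 87.8% it lay within 1.5-fold. The added 1 shrinks differences at low FPKM, so for sparse genes these are not bounds on FPKM itself. For example, pomc-like had side means of 0.559 and 1.86 FPKM but a change of only 0.81 on this scale. An absolute change of at least 1 was seen in 21 genes, 4 higher and 17 lower in late summer. Some of these rest on 1 date. Those higher include the small heat shock genes hsp30-like LOC111948318, LOC111948319 and LOC111948322, at 104, 104 and 34.5 FPKM in August 2017. On every other date compared they were at most at 0.620 FPKM, and LOC111948318 and LOC111948319 hold the same values. Those lower include rln3, high in June 2016 alone among these dates. Among the 6 steps between adjacent pairs of months, fitted the same way with 4 dates against 4, the median absolute change was lowest here. It was 0.0969 from April-May to June-July and 0.151 from August-September to October-November, and both of these steps share dates with the one described. Dates before the drop of rln3 after June 2016 make up a part of every other pair of months, but none of August-September. The part of that drop in these values was not tested. The counts of called genes were 0 and 129 (0.782%) in those 2 steps, 1912 (11.6%) from February-March to April-May and 3468 (21%) from October-November to December-January.

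**Figure D1:**
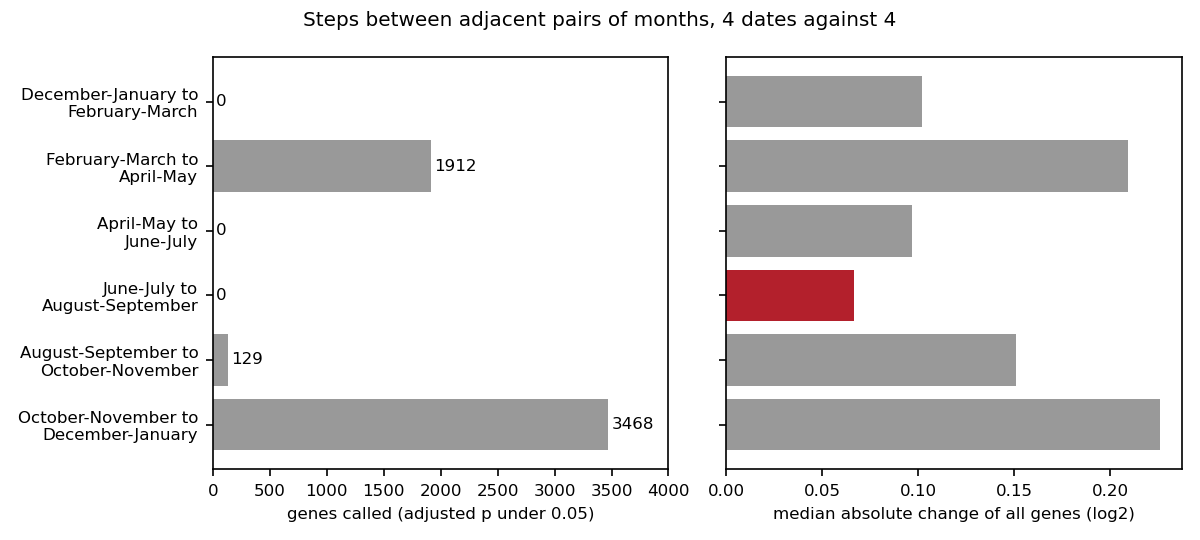
Steps between adjacent pairs of months over 24 dates. Left, number of genes called at an adjusted p under 0.05; right, median absolute change of all 16493 genes on the log2 scale. The step from June-July to August-September (red) has 0 called genes and a median of 0.0663, against 3468 and 0.226 for October-November to December-January.

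Dates of the 2 sides were seldom fully apart. In 112 genes (0.679%) all 4 late summer dates lay above all 4 midsummer dates, and in 52 (0.315%) all 4 lay below. The 5 genes named next in each direction have the smallest unadjusted p among genes with a protein name, at least 5 FPKM on the higher side and the same sign in both years, and none passed (adjusted p = 1 by limma for each). Genes picked for a small p tend to have their dates apart, so a lack of overlap in them adds no support. They are given as values.

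A histone H2A gene, LOC111946911, which encodes a core protein of the nucleosome, was at 20.8, 22.8, 20.9 and 25.6 FPKM on the June and July dates. On the August and September dates it was at 34.2, 31.5, 29.6 and 41.0 FPKM. The sides did not overlap, and the difference was 0.58 ± 0.11 (SE) on the log2 scale (unadjusted p = 0.00044), 0.57 in 2016 and 0.58 in 2017. A histone H4 gene, LOC101172305, was at 98.2 ± 19.9 against 137 ± 13.8 FPKM (SD, n = 4 dates), a difference of 0.52 ± 0.15, with 3 of 4 late dates above every midsummer date. Histone genes often occur in near-identical copies, and how fragments were divided among copies is uncertain.

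The homeobox gene pitx1, which acts in the early pituitary and in hormone genes, was at 3.12 and 4.74 FPKM in June and July 2016 and at 2.85 and 4.46 FPKM in 2017. In August and September it was at 4.99 and 5.27 FPKM in 2016 and at 6.50 and 7.79 FPKM in 2017. All 4 late dates were higher than all 4 midsummer dates, by 0.59 ± 0.17 on the log2 scale (0.53 without June 2016). The caveolar coat gene cavin2 was at 9.95 ± 0.934 and 12.9 ± 1.38 FPKM, and the autophagy gene map1lc3b at 24.6 ± 1.53 and 31.2 ± 4.21 FPKM. Both had no overlap between sides.

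On the lower side the tight junction gene claudin-4, LOC101159933, had the largest difference of the 5. It was at 4.08, 8.35, 5.50 and 4.49 FPKM on the midsummer dates and at 1.33, 1.08, 0.475 and 3.12 FPKM on the late ones, a difference of -1.23 ± 0.28 with no overlap of date means. Its libraries of 1 date differed widely, as in July 2016 with 15.0 and 1.71 FPKM, and in June 2017 with 10.1 and 0.880 FPKM. The lectin gene LOC111948304, singled out after its values were seen, behaved alike in this respect: its date means were 1.66 to 6.08 and 0.270 to 0.995 FPKM, while its June 2017 libraries were at 5.50 and 0.280 FPKM.

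The cytoskeletal gene tagln3 was at 8.88 ± 0.660 FPKM in midsummer and 7.07 ± 0.358 FPKM in late summer (-0.29 ± 0.09), again with no overlap. The cytochrome P450 gene LOC101155293 was at 5.29 ± 1.25 and 3.35 ± 0.870 FPKM. DNA ligase 1, lig1, which joins strands in replication and repair, was at 139 ± 68.7 and 100 ± 71.9 FPKM, and LOC110017033, a NACHT and leucine-rich repeat protein gene, at 8.24 ± 0.797 and 5.85 ± 1.65 FPKM. In these 3 genes 3 of 4 late dates lay below every midsummer date. Libraries of 1 date differed widely for lig1, as in August 2017 with 400.4 and 9.31 FPKM and in June 2017 with 13.2 and 211 FPKM, and its difference of -0.90 was -0.24 without the second library of August 2017. For LOC110017033 the difference of -0.47 was -0.31 without the second library of September 2017.

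Pituitary hormone genes gave no call. Of 15 listed genes 12 passed the filter of a mean of at least 1 FPKM over the series, and 0 of 12 rose or fell (0% of all genes tested were called). At the unadjusted threshold 3 were higher and 1 lower. The list's median change was 0.19, against 0.00977 for all genes, and -0.10 without June 2016. The genes gpha2, prl and gphb5 were below the filter.

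The LH beta subunit gene lhb was at 93.6, 232, 247 and 68.3 FPKM from June to September 2016. In 2017 the same months gave 101, 208, 248 and 113 FPKM. In both years July and August were high and June and September low, so each side held 1 high and 1 low date a year, and the sides stood at 159 ± 71.6 and 169 ± 92.4 FPKM (0.02 ± 0.44, 95% interval -0.96 to 0.99). The shared alpha subunit gene cga had the same order in 2016, at 421, 914, 1263 and 353 FPKM, and peaked in August of 2017 too, at 401, 773, 940 and 733 FPKM. The FSH beta gene fshb had no such order: it was at 142, 128, 307 and 79.9 FPKM in 2016 and at 268, 200, 105 and 73.2 FPKM in 2017, lowest in September of both years.

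**Figure D2:**
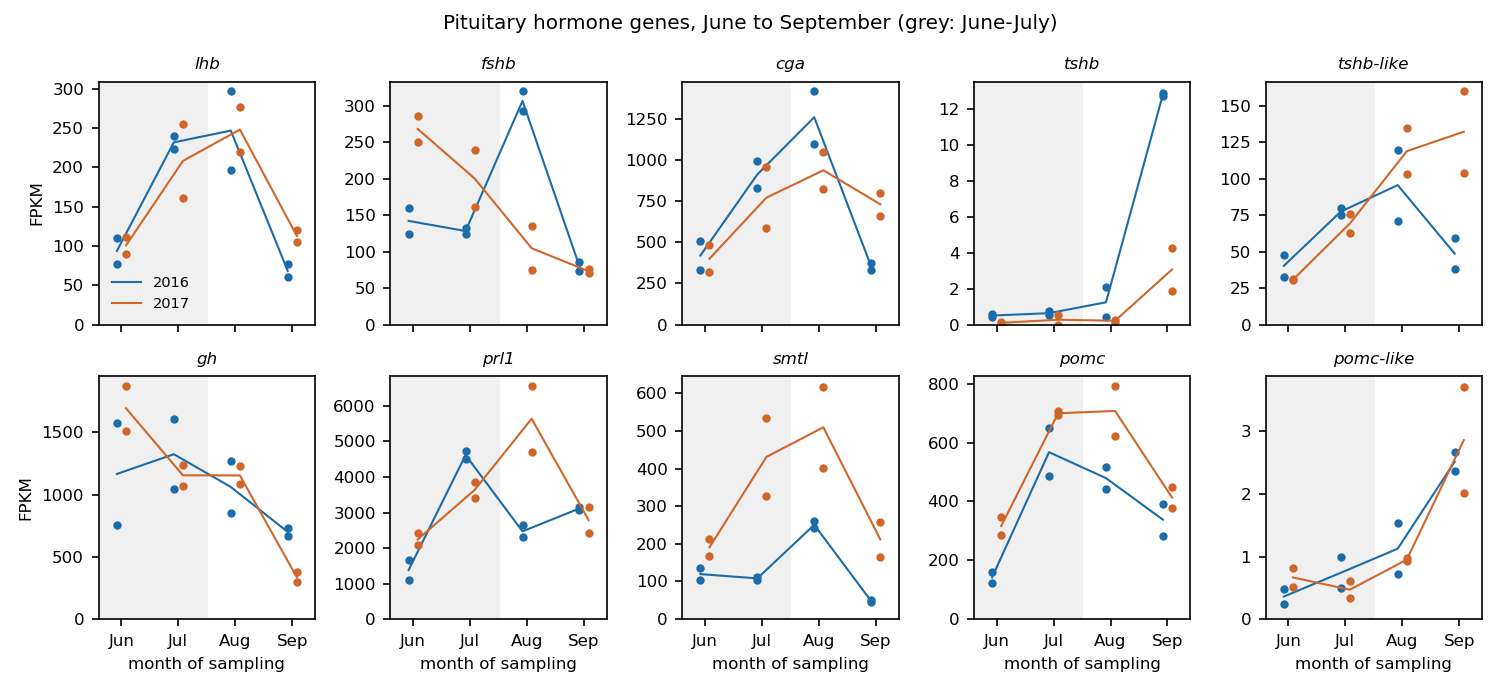
FPKM of 10 pituitary hormone genes by month; each point is 1 library, lines join the means of 2 libraries, blue is 2016 and orange 2017, and grey marks June and July. For lhb, the July and August means of both years (208 to 248 FPKM) lie above the June and September means (68.3 to 113 FPKM), while for tshb the September means of 12.8 and 3.07 FPKM are the highest of each year.

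Thyrotropin beta genes were the hormone genes higher in late summer at the unadjusted threshold, with pomc-like. The gene tshb was at 0.500, 0.635, 1.24 and 12.8 FPKM from June to September 2016 and at 0.0950, 0.270, 0.210 and 3.07 FPKM in 2017. The late summer mean therefore rests on the September dates, at 12.8 and 12.9 FPKM in the libraries of 2016 and 4.27 and 1.87 FPKM in those of 2017. The difference between sides was 1.34 ± 0.60 (unadjusted p = 0.0493 by limma, adjusted p = 1). The related gene tshb-like, which by its annotation also encodes a thyrotropin beta chain, had higher FPKM on every date. It was at 40.2, 77.3, 95.5 and 48.6 FPKM in 2016 and at 30.7, 69.2, 119 and 132 FPKM in 2017 (0.83 ± 0.35, unadjusted p = 0.0397), so that August was the high date in 2016 and September in 2017.

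Growth hormone, gh, was the only hormone gene whose 4 late dates all lay below the midsummer dates. It was at 1166, 1325, 1694 and 1155 FPKM in June and July and at 1061.5, 700.2, 1154 and 336 FPKM in August and September, with August 2017 within 1 FPKM of July 2017. The sides were at 1335 ± 251 and 813 ± 373 FPKM, a difference of -0.82 ± 0.34 (unadjusted p = 0.0375, adjusted p = 1). June 2016 libraries alone spanned 753 to 1579 FPKM.

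Prolactin, prl1, which acts in freshwater salt balance, was at 1380.2 and 4618 FPKM in June and July 2016 and at 2469.5 and 3114 FPKM in August and September. In 2017 it was at 2242, 3636, 5639.5 and 2790.1 FPKM, June again being the lowest date. Somatolactin, smtl, a fish hormone of the same family, was at 47.6 to 251 FPKM in 2016 and at 191 to 510 FPKM in 2017, highest in August of each year. The precursor gene of the stress and pigment peptides, pomc, was at 142, 568, 479 and 338 FPKM in 2016 and at 316, 700.0, 708 and 413 FPKM in 2017. The sparse gene pomc-like was at 0.360 to 0.740 FPKM on the midsummer dates and at 0.950 to 2.86 FPKM on the late ones, with no overlap (0.81 ± 0.23, unadjusted p = 0.00489, adjusted p = 1).

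Because lhb and its companions turned within a side, the steps between single months were fitted as well, a comparison added after these values were seen. With 2 dates a month and 4 month means over the 8 dates, limma called 0 genes in each of the 3 steps. At the unadjusted threshold there were 484 (2.93%) from June to July, 105 (0.637%) from July to August and 270 (1.64%) from August to September. For lhb the steps were 1.17 ± 0.22, 0.17 ± 0.22 and -1.47 ± 0.22 (adjusted p = 0.627 for the last). For cga they were 1.04 ± 0.32, 0.39 ± 0.32 and -1.09 ± 0.32, and for pomc 1.57 ± 0.36, -0.11 ± 0.36 and -0.64 ± 0.36.

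The September step held the values of tshb (2.21 ± 0.53), gh (-1.18 ± 0.34), smtl (-1.82 ± 0.76) and gnrh3 (0.89 ± 0.18), none of them past the threshold. The smallest adjusted p of that step, 0.137, belonged to LOC105354644, annotated as a transforming growth factor beta receptor type 3 and singled out after its values were seen. It was at 15.1, 25.9, 32.4 and 12.2 FPKM in 2016 and at 17.6, 30.4, 41.0 and 11.3 FPKM in 2017, an order like that of lhb. The peptide YY-like gene LOC101160582, also chosen in this way, was at 25.1, 39.4, 65.0 and 11.1 FPKM and at 17.8, 62.4, 49.8 and 12.8 FPKM (-2.14 ± 0.27 from August to September, adjusted p = 0.237).

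Genes of pituitary cell identity gave no call either. Of 14 listed, 12 passed the filter and 0 passed the test, with 2 higher at the unadjusted threshold and a median change of 0.093. Besides pitx1 this was lhx3, a LIM homeobox gene needed for most anterior pituitary cells, at 2.83 and 5.78 FPKM in June and July 2016 and at 3.43 and 6.18 FPKM in 2017. On the late dates lhx3 was at 5.55 to 8.04 FPKM (0.52 ± 0.21, and 0.36 without June 2016). The June dates were low in both years, as they were for pou1f1, the factor of growth hormone, prolactin and thyrotropin cells. That gene was at 10.4 and 16.8 FPKM in June and at 18.8 to 24.1 FPKM on the other 6 dates. The summed hormone genes, of which prl1 was the largest on every date, were lowest in June 2016, at 3508 FPKM. June 2017, at 5248 FPKM, lay above both Septembers. The sums were at 7974.5 and 7176 FPKM in July, 6179 and 9426 FPKM in August, and 4768 and 4810.5 FPKM in September. The part of the amount of pituitary in each block in these hormone values was not tested.

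Photoperiod and thyroid hormone genes gave no call. Of 25 listed, 22 passed the filter, 0 passed the test, 0 reached the unadjusted threshold and the median change was -0.017. The deiodinase gene dio2, whose enzyme activates thyroid hormone, was at 6.41 ± 2.27 and 5.11 ± 2.00 FPKM, and dio3, whose enzyme inactivates it, at 2.76 ± 0.858 and 3.65 ± 1.92 FPKM. In September 2017 dio3 was at 6.54 FPKM and dio2 at 2.85 FPKM, the highest and lowest of the 8 dates for each gene. A thyrotropin receptor gene, LOC101170361, was at 3.79 ± 0.944 and 3.81 ± 0.757 FPKM (95% interval of the change -0.35 to 0.36), while the gene named tshr was below the filter at 0.0600 to 0.135 FPKM. The releasing hormone gene trh was at 20.2 to 32.1 FPKM in midsummer and 23.3 to 38.3 FPKM in late summer, and its receptor gene trhr2 at 15.7 to 17.1 and 16.2 to 20.1 FPKM.

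Reproductive peptide genes gave no call either. Of 14 listed, 13 passed the filter and 0 passed the test, with 1 lower at the unadjusted threshold and a median of -0.13. That gene was kiss2, of the kisspeptin family, at 8.40 ± 2.09 and 5.74 ± 1.64 FPKM (-0.49 ± 0.21, unadjusted p = 0.0437 by limma). In 2016 it was at 6.36, 8.88, 6.94 and 6.71 FPKM, and in 2017 it was at 11.1, 7.24, 5.95 and 3.37 FPKM, so the difference was -0.11 in 2016 and -0.87 in 2017. The forebrain peptide gene gnrh3 was at 11.1 and 14.6 FPKM in the 2 Septembers and at 6.18 to 8.28 FPKM on the other 6 dates. The gene gnrh1, whose peptide acts on the pituitary, was at 3.30 ± 0.437 and 4.64 ± 1.90 FPKM (0.36 ± 0.22). For rln3 the difference of -1.67 ± 1.00 became -0.39 without June 2016.

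Feeding and stress peptides held 40 tested genes of 41, of which 0 passed and 1 was lower at the unadjusted threshold. That was the neuropeptide B gene npb at 2.42 to 6.43 and 1.35 to 2.38 FPKM, with June 2016 the highest date and a difference of -0.55 ± 0.24 that was -0.28 without it. A second entry named npb changed by -0.83 in 2016 and 0.039 in 2017. The melanin-concentrating hormone gene pmch-like was at 26.3 and 91.9 FPKM in June and July 2016 and at 61.1 and 137 FPKM in August and September. In 2017 it was at 48.6, 43.6, 58.3 and 89.5 FPKM, September being its highest date in both years (0.76 ± 0.37, unadjusted p = 0.063). The somatostatin gene sst1b was at 72.7 to 88.0 and 55.7 to 74.3 FPKM, and the feeding peptide gene agrp (LOC101171147) at 2.06 to 4.71 and 1.67 to 2.64 FPKM.

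Sex steroid genes gave 0 of 14 tested past the threshold and 0 at the unadjusted one. Brain aromatase, cyp19b, which makes estrogen in radial glia of fish, was at 157, 220, 289 and 98.7 FPKM in 2016 and at 288, 288, 264 and 182 FPKM in 2017. The sides stood at 238 ± 62.8 and 209 ± 86.5 FPKM (-0.26 ± 0.32), and September was the lowest date in each year. The estrogen receptor gene esr1 was at 3.42 ± 1.03 and 4.31 ± 1.03 FPKM, the membrane estrogen receptor gene gper1 at 2.33 to 5.80 and 4.30 to 5.72 FPKM, and the steroid enzyme gene cyp17a2 at 7.22 to 9.13 and 7.17 to 13.1 FPKM.

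Clock genes, the loop of activators and repressors that keeps daily time in cells, were read at a later time after sunset in late summer. Of 25 repressor and kinase genes 0 passed and 0 reached the unadjusted threshold, and of 19 tested activator and output genes likewise 0 and 0, with medians of -0.042 and -0.048. The smallest p among them belonged to the repressor dec1a, at 6.52 to 8.37 and 6.16 to 7.26 FPKM (-0.19 ± 0.10, unadjusted p = 0.0832). The cry1 copy LOC101160902 was at 0.425 to 1.36 and 0.365 to 0.720 FPKM, and per2 at 5.24 to 7.24 and 3.46 to 7.42 FPKM. The nuclear receptor gene rorb was at 4.83 FPKM in June 2016 and at 2.09 to 2.90 FPKM on the other 7 dates. A second entry named rorb, LOC101164545, was otherwise. Its libraries were at 3.96 and 4.24 FPKM in June 2016 and at 7.78 and 6.61 FPKM in September 2017, its highest date. Non-visual opsins, light sensors of the deep brain, gave 0 of 9 tested, with valop at 1.11 to 3.54 and 0.755 to 1.56 FPKM. A second entry named valop, LOC101168518, did not share that direction. Its libraries were at 1.05 to 2.32 FPKM in midsummer and at 1.55 to 2.55 FPKM in late summer. Of the 9, 3 had a positive and 6 a negative difference.

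Chaperone genes were set apart by the summer of 2017. Chaperones fold and protect proteins and many are induced by heat or other stress. Of 55 listed genes, all 55 passed the filter, 0 passed the test and 0 reached the unadjusted threshold, yet 39 of the 55 had their highest date in August 2017, as did 2997 of all 16493 genes (18.2%). The list's median change was -0.094 in 2016 and 0.29 in 2017, and over both years 0.099, or -0.14 without August 2017. Genes named here beyond dnajb5, dnaja1, LOC111948318 and LOC111948319 were chosen after their values were seen, as those highest in August 2017 relative to the other dates.

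The cytosolic chaperone gene hsp90aa1 was at 92.8, 40.8, 45.0 and 27.1 FPKM from June to September 2016. In 2017 it was at 79.0 FPKM in June, 540.3 FPKM in July, 2716.5 FPKM in August and 99.6 FPKM in September. Both libraries of August 2017 were high, at 2887 and 2546 FPKM, as were both of July 2017, at 559 and 521 FPKM. The gene listed as hspa8 (LOC100125490) was high on the same 2 dates, at 19.4 to 41.1 FPKM on 6 dates, 264 FPKM in July 2017 and 867 FPKM in August 2017. A separate entry named hsc70, given here for its name and not by that choice, changed by -0.086 in 2016 and 0.299 in 2017 on the log2 scale. With the high July 2017 on 1 side and August 2017 on the other, the difference between sides was 0.26 ± 1.30 for hsp90aa1 and -1.18 without August 2017.

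Inducible HSP70 genes were high in the same 2 months. The copy hspa1 (LOC101169944) was at 1.54 to 4.42 FPKM on 6 dates, at 33.7 FPKM in July 2017 and at 300.0 FPKM in August 2017, where its libraries held 402 and 198 FPKM. The copy LOC111947725 was at 27.7 and 287 FPKM, LOC111947723 at 32.8 and 194 FPKM, and hspa1-like at 11.4 and 110.3 FPKM in those 2 months. Small heat shock genes were seen in August 2017 almost alone: hsp30-like (LOC111948318) was at 104 FPKM there and at most 0.385 FPKM on the other 7 dates. LOC111948319 has the same values in every library and is not an independent gene here, and LOC111948322 was at 34.5 against at most 0.620 FPKM. Genes that share these names may be near copies, so how fragments were divided among them is uncertain. The cochaperone genes dnajb5 (LOC101168635) and dnaja1 were not part of this pattern, at 75.9 to 97.8 and 40.3 to 86.1 FPKM, and at 13.9 to 16.5 and 12.7 to 15.6 FPKM. Water temperature was not analysed here.

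**Figure D3:**
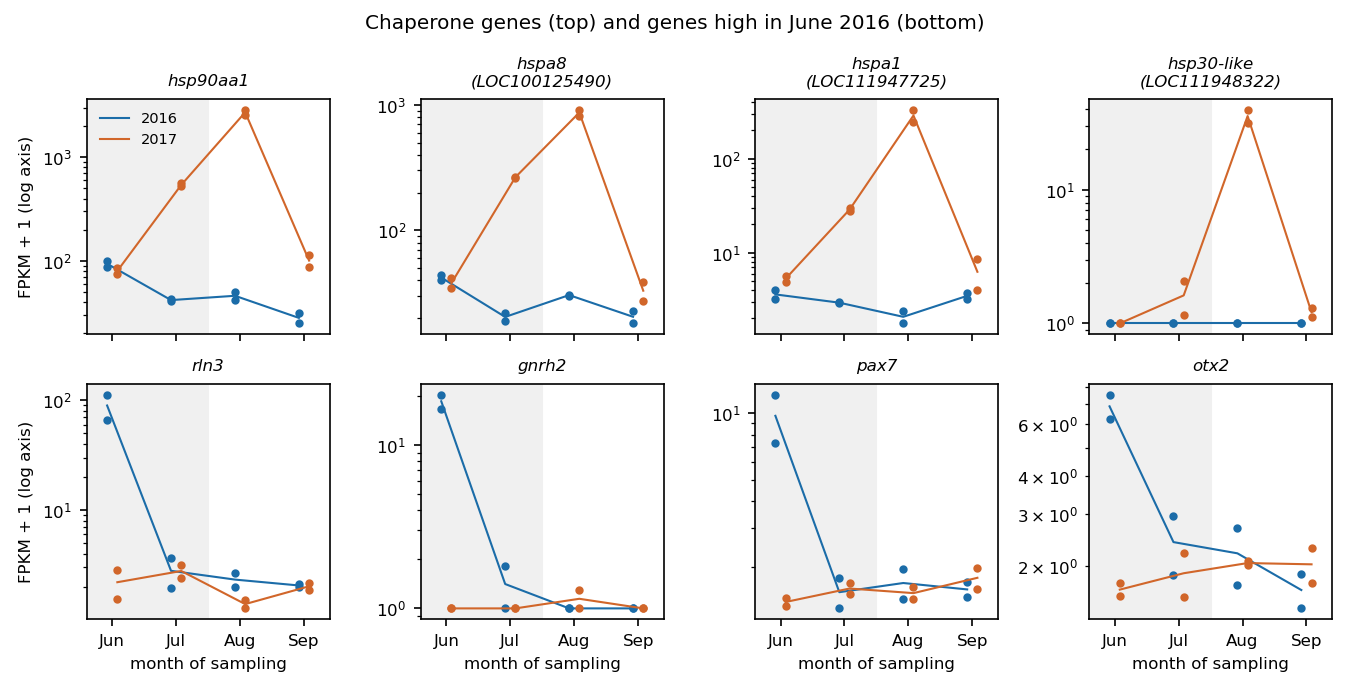
FPKM + 1 on a log axis by month for 4 chaperone genes (top) and 4 genes high in June 2016 (bottom); points are libraries, lines join date means, blue is 2016 and orange 2017, and grey marks June and July. For hsp90aa1 the July and August 2017 means (540.3 and 2716.5 FPKM) stand above all others, and for rln3 June 2016 (88.9 FPKM) does.

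Of 25 cholesterol synthesis genes 0 passed, 1 was higher at the unadjusted threshold, 18 had a positive and 7 a negative difference, and the median was 0.12. Without August 2017 the median was 0.24 and 6 reached the unadjusted threshold, as did 305 of all 16493 genes. Without June 2016 the median was 0.17 and 1 reached it, as did 245 of all genes. September 2017 was the highest date for 12 of the 25 (48.0%), as it was for 23.8% of all genes. The sterol isomerase gene ebp was at 0.850 to 1.68 FPKM in midsummer and 1.71 to 3.49 FPKM in late summer, with no overlap (0.64 ± 0.18, unadjusted p = 0.00454, adjusted p = 1). The squalene synthase gene fdft1 was at 5.70 to 7.21 and 6.34 to 9.40 FPKM. August 2016 was the highest date for fdft1. The sterol feedback gene insig1, listed with 27 tested fatty acid genes of which 0 passed, was at 6.09 to 9.29 and 8.01 to 11.8 FPKM (0.36 ± 0.15).

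Differences of ribosomal protein and respiratory chain genes were mostly small and mostly of 1 sign. Of 78 cytosolic ribosomal protein genes 0 passed, 76 had a positive difference and the median was 0.12, but 0.019 with quantile normalization, which moved the median of all genes from 0.00977 to -0.002. Changes in this list ran from -1.02 to 0.23, and its median was 0.069 without June 2016. June 2016 was the lowest date for 65 of the 78 (83.3%, against 14.8% of all genes). July 2016, also a midsummer date, was the highest for 36 of the 78 (46.2%, against 10.6% of all genes). The gene rps21 was at 232 to 278 FPKM in midsummer and 274 to 322 FPKM in late summer, and rps18 at 326 to 405 and 353 to 442 FPKM. Of 67 oxidative phosphorylation genes 0 passed, 58 had a positive difference, the median was -0.041 in 2016 and 0.18 in 2017, and 48 had their highest date in September 2017, as did 3932 of all genes (23.8%). The cytochrome oxidase subunit gene cox4i2 was at 36.4 to 45.0 and 42.1 to 53.1 FPKM (0.26 ± 0.10).

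Other stress and response lists gave 0 called genes each. Immediate early genes, switched on within minutes of cell activity, had 25 of 30 tested members with a negative difference. Their median was -0.10, or -0.024 without June 2016. That date was the highest for 16 of the 30 (53.3%, against 16.4% of all genes). September 2017 was the lowest for 15 of the 30 (50%, against 7.58% of all genes). The list's median was -0.18 in 2016 and -0.086 in 2017. The gene egr4-like was at 42.2 FPKM in June 2016 and 17.2 to 23.9 FPKM otherwise. Of 16 glucocorticoid response genes, 8 were highest in July 2016 (10.6% of all genes were) and 8 lowest in September 2017 (7.58% of all genes). In June 2016, 7 of the 16 were lowest (14.8% of all genes). Their median was -0.056, and -0.20 without June 2016. The gene cebpb, highest in July 2016 and lowest in September 2017, was at 5.12 to 10.1 and 2.83 to 6.85 FPKM (-0.54 ± 0.23, unadjusted p = 0.0420). The factor gene klf9, singled out after its values were seen, was at 10.1 FPKM in June 2016, 6.47 FPKM in September 2017 and 36.5 to 57.1 FPKM on the other 6 dates.

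Oxidative stress genes gave 0 of 25, with the peroxidase gene prdx1 at 49.9 to 85.7 and 71.0 to 101 FPKM. August 2017 was the highest date for 13 of the 25 (52%, against 18.2% of all genes). Interferon and antigen presentation genes gave 0 of 21, with 14 positive and 7 negative differences and a median of 0.081. The proteasome gene psmb8 was at 2.35 to 4.28 and 1.62 to 2.81 FPKM, and the antiviral gene mx (LOC101163162) at 2.31 to 5.08 and 2.77 to 5.95 FPKM. Proliferation genes gave 0 of 15 tested among 29, with the spindle motor gene kif11 at 1.49 to 2.23 and 1.80 to 3.75 FPKM. Cold-inducible and RNA binding genes gave 0 of 30, hypoxia genes 0 of 24 and osmolyte and creatine genes 0 of 14, with medians of -0.012, -0.022 and -0.014. In the last list the first enzyme of creatine synthesis, gatm, was at 4.58 to 9.39 and 1.61 to 7.17 FPKM, its lowest date being August 2017.

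**Figure D4:**
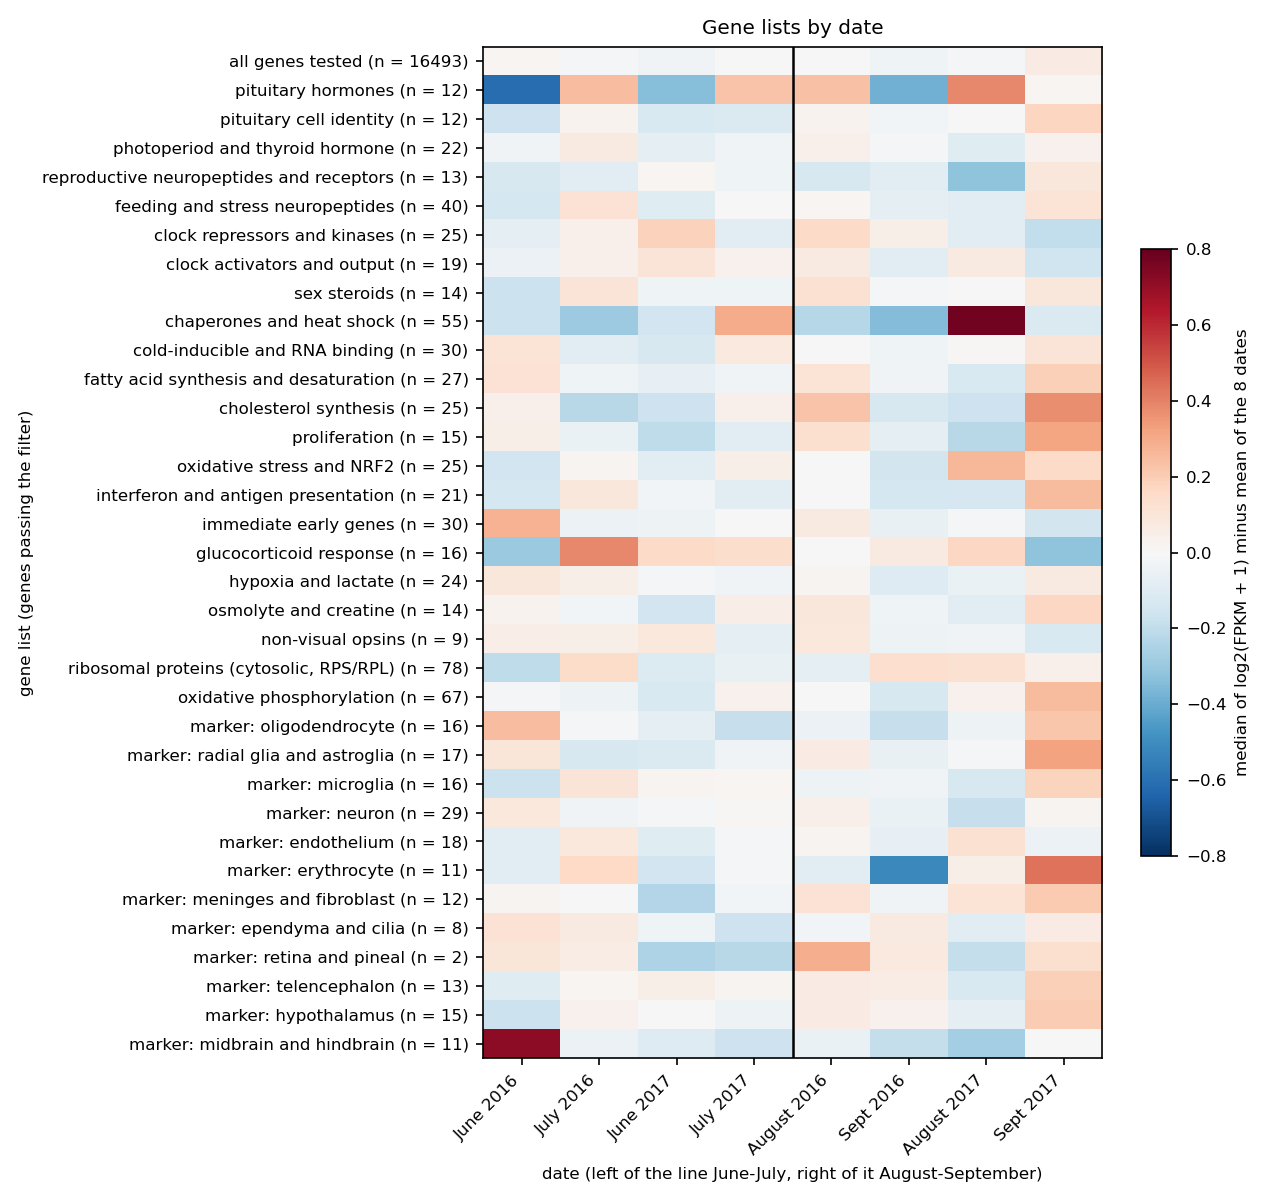
Gene lists (rows) by date (columns, June and July left of the line), coloured by the median over members of log2(FPKM + 1) minus each gene's mean over the 8 dates. Chaperones in August 2017 (0.77) and midbrain and hindbrain markers in June 2016 (0.717) are the strongest positive cells, and pituitary hormones in June 2016 (-0.608) the strongest negative one.

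Markers of cell types gave 0 called genes in every list, so no cell type was shown to differ between the sides. Radial glia held the calcium-binding gene s100b at 137 to 241 and 205 to 267 FPKM (0.36 ± 0.16, and 0.50 without June 2016), with summed markers at 2206 to 2628 and 2446 to 3038.5 FPKM. Oligodendrocyte markers summed to 1070 to 1718.5 and 1142 to 1711 FPKM, with June 2016 and September 2017 the high dates. Neuron markers summed to 2341 to 2685 and 2204 to 2504 FPKM, and 23 of 29 had a negative difference. Their median was -0.071, and -0.0096 without August 2017, the lowest date for 16 of the 29 (55.2%, against 21.2% of all genes). It was -0.044 without June 2016, the highest date for 11 of the 29 (37.9%, against 16.4% of all genes). Microglia markers summed to 288 to 388 and 317 to 383 FPKM, endothelial ones to 117 to 153 and 128 to 157 FPKM, and erythrocyte ones to 1794.5 to 3240 and 1642.5 to 3800.2 FPKM.

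Meningeal markers summed to 44.2 to 56.2 and 47.0 to 59.8 FPKM, cilia markers to 16.3 to 23.9 and 16.0 to 19.3 FPKM, and retinal and pineal markers to 5.57 to 8.75 and 6.10 to 8.59 FPKM. Of the 15 tested hypothalamic markers, nkx2-4-like, a homeobox gene of the hypothalamus, was at 8.86 to 11.7 and 12.4 to 16.4 FPKM with no overlap (0.34 ± 0.12, unadjusted p = 0.0137, adjusted p = 1). Of the 15, 12 had a positive and 3 a negative difference, with a median of 0.15, or 0.068 without June 2016. June 2016 was the lowest date for 7 of the 15 (46.7%, against 14.8% of all genes). September 2017 was the highest for 8 of the 15 (53.3%, against 23.8% of all genes). Of 13 telencephalic markers 8 had a positive and 5 a negative difference, with a median of 0.019. June 2016 was the lowest date for 5 of the 13 (38.5%), and September 2017 the highest for 7 of the 13 (53.8%). In this list dlx2 was at 8.11 to 12.1 and 11.2 to 15.6 FPKM, and emx1 at 2.09 to 3.56 and 2.02 to 2.55 FPKM. Midbrain and hindbrain markers had a median change of -0.25 that was -0.02 without June 2016.

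Each year taken alone gave 0 called genes, although leaving out single dates brought up to 11 in 2016 (without July 2016) and up to 4 in 2017 (without September 2017). In 2016, 436 genes (2.64%) had an unadjusted p under 0.05 by limma, and in 2017, 681 (4.13%). The genes named are the 3 of smallest p in each direction, not those of largest change. The LIM and SH3 protein gene LOC101165512 was at 5.21 and 5.43 against 8.54 and 9.17 FPKM in 2016 (0.65), the DNA-binding protein gene LOC101160627 at 30.9 and 14.2 against 69.9 and 75.9 FPKM (1.43), and the secretagogin gene LOC101170527 at 61.0 and 74.7 against 105 and 103 FPKM (0.68). The libraries of LOC101160627 were far apart, at 21.9 and 130 FPKM in September 2016, and its 1.43 was 0.80 without the higher of these. Lower in late 2016 were the C1q-like gene LOC101161009 (-0.79), rpe (-0.52) and the cytokine receptor gene il6st, at 27.4 and 23.1 against 16.3 and 19.2 FPKM (-0.51). In 2017 il6st was at 19.1 and 18.5 against 24.4 and 27.8 FPKM. With 1 library left out, the 2016 values nearest to 0 were 0.42 for LOC101170527, -0.51 for LOC101161009 and -0.33 for il6st.

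Taken likewise by smallest p, in 2017 the hyaluronan link protein gene LOC101162474 was at 7.89 and 4.37 FPKM in midsummer and at 14.4 and 15.5 FPKM in late summer (1.23). The choline transporter-like gene LOC101155826 (0.66) and the lysosomal adaptor gene lamtor5 (0.53) were the other two chosen on the higher side. Lower in late 2017 were the synaptic vesicle gene LOC105356230, an unc-13 homolog, at 13.7 and 10.9 against 7.37 and 7.53 FPKM (-0.65), LOC101168641 of the solute carrier family 22 (-0.78) and the lipid enzyme gene LOC101163971 (-0.65). None of these 12 genes passed (smallest adjusted p = 0.763 in 2016 and 0.953 in 2017, by limma). With single libraries as the unit and their number as a block, LOC105356230 and LOC101155826 had an adjusted p of 0.0375 by limma. That fit counts the 2 libraries of a date as separate samples, so its p does not measure the spread between dates and is not taken as a call.

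The changes of the 2 years did not resemble each other across genes. Pearson's r between the 2016 and 2017 changes was -0.128 over 16493 genes, and 41.6% had the same sign in both years. The median change of all genes was -0.0188 in 2016 and 0.0425 in 2017. These medians of opposite sign enter the share of like signs, and their part in it was not tested. At an unadjusted p under 0.05 in each year, 13 genes were higher in both years, 14 lower in both and 42 in opposite directions. The difference between the years was tested for each gene as well, with 0 called and 817 (4.95%) at the unadjusted threshold (smallest adjusted p = 0.911). The 5 genes nearest to a call were 4 transcripts with no annotation, BGI_novel_G000754, BGI_novel_G000039, BGI_novel_G001309 and BGI_novel_G000806, and LOC101163250, whose change was -0.68 in 2016 and 0.26 in 2017.

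**Figure D5:**
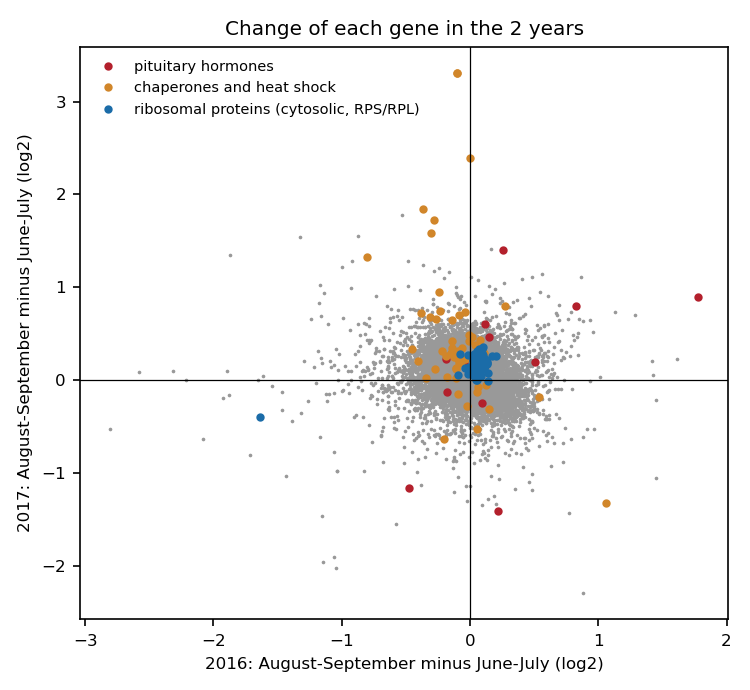
Change from June-July to August-September on the log2 scale in 2016 (horizontal) and 2017 (vertical), 1 point a gene; grey, all 16493 genes; colours, members of 3 lists. The cloud has no positive slope (r = -0.128), and the highest chaperone point, 2 hsp30-like genes with the same values, is at 3.31 in 2017 and -0.10 in 2016.

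The years differed more than the 2 sides. With a term for the year beside the side, added after the principal components were seen, 93 genes (0.564%) differed between 2017 and 2016 over the same 4 months by limma, 37 higher and 56 lower in 2017, and 3073 (18.6%) did so at the unadjusted threshold. The median absolute difference was 0.134, against 0.0663 between sides. The year term was fitted on all 8 dates only, not without June 2016 or August 2017. Anything else that changed between the 2 years, such as fish, dissection or libraries, cannot be told apart from the year. The synaptic gene LOC101157106, syntaxin-1B, was lower in 2017, at 11.3 to 13.4 FPKM in 2016 and 6.01 to 7.11 FPKM in 2017 (-0.77 ± 0.08, adjusted p = 0.00717). The receptor gene sorcs2 was lower too, at 106 to 121 and 69.4 to 74.9 FPKM (-0.65 ± 0.07, adjusted p = 0.0102). The cytochrome oxidase assembly gene LOC101154857 was higher in 2017, at 3.96 to 4.34 and 6.71 to 7.26 FPKM (0.67 ± 0.08, adjusted p = 0.0135). On the first principal component, 25.9% of the variance of the 16 libraries, the 2 libraries of August 2017 lay at -37.5 and -35.4 and all 8 libraries of 2016 between 7.98 and 21.5. The other 2017 libraries lay between these, at -17.9 and -18.7 in July, -4.90 and -4.72 in September, and 0.0072 and 3.31 in June. On this component alone, August 2017 was further from the other 2017 dates than June 2017 was from 2016.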

How the data were processed

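The authors deposited FPKM values per gene, 1 column per library, for 23455 genes. Per the labels' protocols, poly-A RNA gave strand-specific libraries with paired reads of 100 bases. RSEM 1.2.12 and Bowtie2 2.2.5 are listed, without their roles, per the submitters' processing notes. No label used here states a genome build, and no coordinates or sequences are printed. FPKM is not a count, so log2(FPKM + 1) was averaged per date and tested by limma (version 3.58.1, run under R 4.3.3, trend option on) for genes of at least 1 FPKM on average over 50 libraries. P-values were adjusted by Benjamini-Hochberg, and a call means an adjusted p under 0.05. Year contrasts came from 1 fit of side by year. Depth in reads is unknown. Relative depth came from 167 low genes, of whose values 83.6% lay within 0.1 of a whole multiple. Values outside that bound were left out, so this measure cannot show a depth difference.

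Members and the 34 gene lists were chosen with earlier results of these data known. Genes were matched by symbol or, for 293 entries, by description. Genes named are a fixed set of hormone, receptor and thyroid genes, up to 12 called genes in each direction or else the 5 of smallest p, up to 4 a list, 5 for the year difference and 3 in each direction a year. Alternatives were other scalings, filters, pseudocounts, units of replication, year terms and omissions of each library and date. Promoter motifs were not analysed here, and 1 gene that the naming rule picks is not reported here. Tables and figures used Python 3.11.15, pandas 2.3.3 and matplotlib 3.10.9.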

Additional observations from a re-analysis of the deposited data

Results flagged for a closer look

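In 41 of 366 tests, on 183 named genes in each of 2 sides, 1 date lay further from the other 3 of its side than Dixon's 95% criterion allows. Chance flags about 1 in 20 such tests, and genes of 1 date are not independent. The count cannot be read against that rate. The rln3, gnrh2, hsp90aa1, hspa8, hspa1, bag2, pax7, klf9 and LOC111948322 genes were chosen after their values were seen to stand apart. In addition, LOC111948318 and LOC111948319 are 1 set of values counted for 2 genes. All values are date means in FPKM, and none was weighed against an explanation.

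August 2017 was the highest of the August and September dates for hsp90aa1 (2716.5), hspa8 LOC100125490 (867), hspa1 LOC101169944 (300.0), LOC111947725 (287) and LOC111947723 (194), and hspa1-like (110.3). It was also highest for hsp30-like LOC111948318 and LOC111948319 (104 each), hsp30-like LOC111948322 (34.5), bag2 (19.2), nt5c3a (17.1), flt1 (8.37) and gnrh2 (0.145). The gnrh2 value rests on 1 library at 0.29 FPKM, with every other August and September library at 0. August 2017 was lowest for the hypothalamic genes nkx2-1 (4.29) and nkx2-4 (2.86).

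July 2017 was the highest of the June and July dates for hsp90aa1 (540.3), hspa8 LOC100125490 (264), hspa1 LOC101169944 (33.7), LOC111947723 (32.8) and LOC111947725 (27.7), hsp30-like LOC111948322 (0.620), lig1 (242) and fabp7 LOC101157499 (174). It was lowest for cavin2 (8.56).

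June 2016 was the highest for rln3 (88.9), gnrh2 (17.6), pax7 (8.73), npb (6.43), gata3 (6.09) and otx2 (5.88), and the lowest for esr1 (1.89). July 2016 was the highest for tshr LOC101170361 (5.20), mx LOC101163162 (5.08), psmb8 (4.28) and tekt4 (1.44), and the lowest for valop LOC101168518 (1.34).

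September 2017 was the highest for gpr17 (7.20) and dio3 (6.54) and the lowest for klf9 (6.47). August 2016 was the highest for fshb (307) and the lowest for rps18 (353).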

How the results depend on the processing

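The count between sides was 0 under other scalings, filters, pseudocounts, units and year terms, and 0 to 1 with a library or date left out. The range was 0 to 11 for 2016, 0 to 4 for 2017 and 0 to 3 for the difference between years. The 11 without July 2016 include rln3, gnrh2 and pax7, and the 4 without September 2017 are herc4 and 3 hsp30-like genes. Leaving out 1 date of a year leaves 1 date on that side, assumed to vary like the others. The correlation of the years, -0.128, ranged from -0.141 to -0.0627 with a date left out. Library numbers did not pair the samples: over 28 pairs of dates, replicate differences correlated at -0.114 to 0.109. With libraries in place of date means the counts were 0. With the replicate block added to that fit, the 2017 count was 3 (LOC105356230, LOC105356519 and LOC101155826) and the other counts 0. Both of these fits count the 2 libraries of a date as separate samples.

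For the change between sides over both years, of 6703 values of 183 named genes under 37 alternatives, 0 passed the threshold and 97, in 32 genes, had the other sign. With September 2015 added, lhb was at -0.412, tshr LOC101170361 at -0.0952, dec1a at 0.153, cry1 LOC101160902 at 0.018, LOC101161009 at 0.0138, hsp90aa1 at -0.0451 and hspa8 LOC100125490 at -0.0115. With quantile normalization lhb was at -0.0276, smtl at -0.023 and tshr LOC101170361 at -0.00219, and with median ratio scaling the last was at -0.00444. The cause was not tested.

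Leaving out 1 library or date, log2 changes spanned -0.233 to 0.383 for lhb, -0.0216 to 0.568 for prl1, -0.399 to 0.722 for smtl, -0.104 to 0.664 for pomc, -0.459 to 0.0549 for cyp19b and -0.0795 to 0.137 for tshr LOC101170361. They spanned -0.0588 to 0.248 for rorb LOC101164545, -0.0133 to 0.325 for stmn1 LOC101174071, -0.303 to 0.0444 for foxo3, -0.247 to 0.0282 for rsph9, -0.124 to 0.223 for arr3 LOC101168125 and -0.669 to 0.0115 for otx2. For BGI_novel_G000754 they spanned -0.42 to 0.174, for BGI_novel_G000806 -0.249 to 0.135, for LOC101161009 -0.349 to 0.0253, for il6st -0.151 to 0.0804, for pax7 -0.795 to 0.125, for LOC105354644 -0.359 to 0.231, for LOC101160582 -0.68 to 0.124 and for klf9 -0.869 to 0.282. Among chaperones they spanned -0.048 to 2.19 for hsp30-like LOC111948318 and LOC111948319, -0.0681 to 1.65 for LOC111948322, -0.867 to 1.5 for hspa1 LOC111947725, -0.915 to 1.35 for hspa1-like, -0.86 to 1.57 for hspa1 LOC101169944, -1.02 to 1.45 for LOC111947723, -1.18 to 1.02 for hsp90aa1, -0.991 to 1.02 for hspa8 LOC100125490 and -0.187 to 0.576 for bag2.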
